A study of Oikopleura dioica with 8 samples.

Results

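Among mRNAs that were abundant in whole *Oikopleura dioica* and kept a similar level when growth arrest ended, the 200 gene models described here carried the most ribosome footprints for their RNA. *O. dioica* is a planktonic tunicate that feeds through a secreted gelatinous house and that can pause its growth (stasis) when crowded and underfed. They were chosen by reads. Of the 17212 gene models counted, 3486 had at least 50 RPM (reads per 1000000 reads of the library) in all 4 total RNA libraries. A mean total RNA in released animals between 0.67 and 1.5 times that in stasis left 2966 of them, and a limit of 1% of the reads in any library of ribosome protected fragments (RPF) left 2964. After 79 genes from the study's list of orthologs of TOP mRNAs, and 2 gene models annotated as myosin heavy chain, tropomyosin or myosin-binding protein, were taken out, 2883 were eligible. The muscle names could be looked up only in the annotation rows at hand, so unannotated gene models of this kind may remain. The 200 with the highest ratio of summed RPF reads to summed total RNA reads are the members. The other 2683 eligible gene models are what they are set against.

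Animals were collected whole 30 min after a move to normal density ended their growth arrest (release), or on day 7 of that arrest (stasis). The study describes release as a dilution with food present, so density and feeding are not separated here. All had been kept crowded and given reduced feeding to bring on stasis, the released animals included, and there were 2 samples of each state. Each sample gave an RPF library, made with the ARTSeq kit, and a total RNA library, so that the table holds 8 libraries. For the total RNA extraction the sample labels name RNAqueous and the methods RNEasy. No strain, allele or drug separates the states, and the libraries were sequenced on a pair of flow cells whose assignment to samples is not given in the sources used here. In whole animals a smaller number of cells of one type and less RNA per cell cannot be told apart.

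A ribosome covers a short stretch of the mRNA it is reading and protects it from nuclease. The sequenced fragments therefore count ribosomes on an mRNA, and their number set against the total RNA of the same gene, the translational efficiency (TE), is a measure of how heavily each copy of the mRNA was loaded with ribosomes. Initiation is usually the step that sets this loading, although slow or stalled elongation also raises the number of footprints without more protein being made. TOP mRNAs code for ribosomal proteins and translation factors and respond to the growth kinase mTOR. Gene models on the study's list of their orthologs are not among the members. Others of this kind may remain, because most members had no annotation in the rows at hand. The dominant gene models that each took over 1% of an RPF library are not among the members either.

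The RPF libraries held 1240592 and 308680 reads for release replicates 1 and 2 and 1488886 and 261745 reads for stasis replicates 1 and 2, while each total RNA library held at least 13041273. The 7 dominant gene models took 19.9% and 41.7% of the RPF reads on release and 23.8% and 57.1% in stasis, so that the RPM values of every other gene model were lowered most in stasis replicate 2. No tissue markers are given for these whole animals, so gene models were listed by keywords in the annotation rows at hand. All 12 oikosin gene models (house proteins), 34 muscle and 36 cilia and sperm gene models had total RNA reads. The summed total RNA of the muscle list was 6483 and 3010 RPM on release, against 2486 and 2552 RPM in stasis, so release replicate 1 stood apart.

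The ratio that chose the members had a median of 0.0935 RPF reads per total RNA read (0.0747 to 0.382), against 0.0228 in the other eligible gene models. These values are the rule itself and are given as a description. There was no gap at its limit. GSOIDT00000763001, GSOIDT00015570001 and GSOIDT00009337001, the last inside, had 0.0750, 0.0750 and 0.0747 RPF reads per total RNA read. GSOIDT00012991001, GSOIDT00011747001 and GSOIDT00007720001, the first outside, had 0.0745, 0.0743 and 0.0743. As replicate 1 gave most of the RPF reads in both states, the sum follows replicate 1 more than replicate 2.

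The members took 10.9% and 7.48% of all RPF reads on release and 10.8% and 4.41% in stasis. Of the total RNA reads they took 4.68% and 4.38% on release and 4.65% and 4.70% in stasis. Outside the 7 dominant gene models, their share of RPF reads was 13.6% and 12.8% on release and 14.2% and 10.3% in stasis. Leaving out the dominant gene models nearly closed the gap between the release replicates and narrowed that between the stasis replicates, and the share of total RNA was nearly level.

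**Figure D1:**
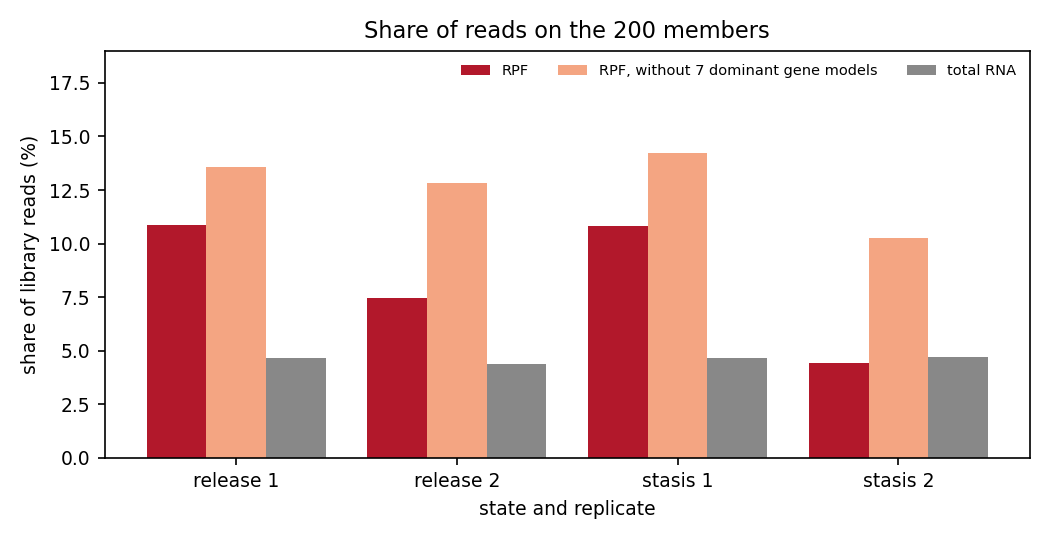
Share of library reads on the 200 members (%), for RPF reads, for RPF reads outside the 7 dominant gene models and for total RNA reads, in each sample. The RPF share was lowest in stasis 2 (4.41%), where it lay just under the total RNA share (4.70%), and was above 10% in all 4 samples once the dominant gene models were left out.

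The typical member had fewer RPF reads in replicate 2 than in replicate 1. The median member had 368 and 57.5 RPF reads on release and 442.5 and 28.5 in stasis, against 62 and 12 on release and 69 and 9 in stasis for the other eligible gene models. At least 10 RPF reads were counted for 200 and 199 members on release and for 200 and 183 in stasis, and no member was at 0 in any library. The lowest single values were 102 and 9 reads on release and 89 and 1 in stasis.

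In total RNA the members had a median mean level of 138 RPM (56.5 to 3034). The other eligible gene models had a median of 100.3 RPM (51.7 to 6539). Gene lengths are not in the files, so these levels are shares of reads and not copies of mRNA. Members made up 4.98% of the eligible gene models between 50 and 100 RPM (70 of 1406), 6.58% between 100 and 200 RPM (63 of 957), 12.95% between 200 and 500 RPM (50 of 386) and 12.7% at 500 RPM or more (17 of 134). The release to stasis ratio of total RNA, which the rule had bounded, had a median of 0.946 among the members, and 82 of 200 lay above 1.

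TE was computed in each sample as RPF RPM over total RNA RPM. The median TE of the members was 2.11 and 1.38 on release and 2.04 and 0.718 in stasis. For the other eligible gene models it was 0.502 and 0.378 on release and 0.439 and 0.296 in stasis. The members' median was therefore 4.20 and 3.65 times that of the others on release, and 4.64 and 2.42 times in stasis. Above the others' median lay 200 and 200 members on release and 199 and 193 in stasis, and 192 of 200 members were above it in all 4 samples. The rule ranked the members by reads summed over these same samples, so a higher TE was largely set in advance. These values describe the list and are no test of it.

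**Figure D2:**
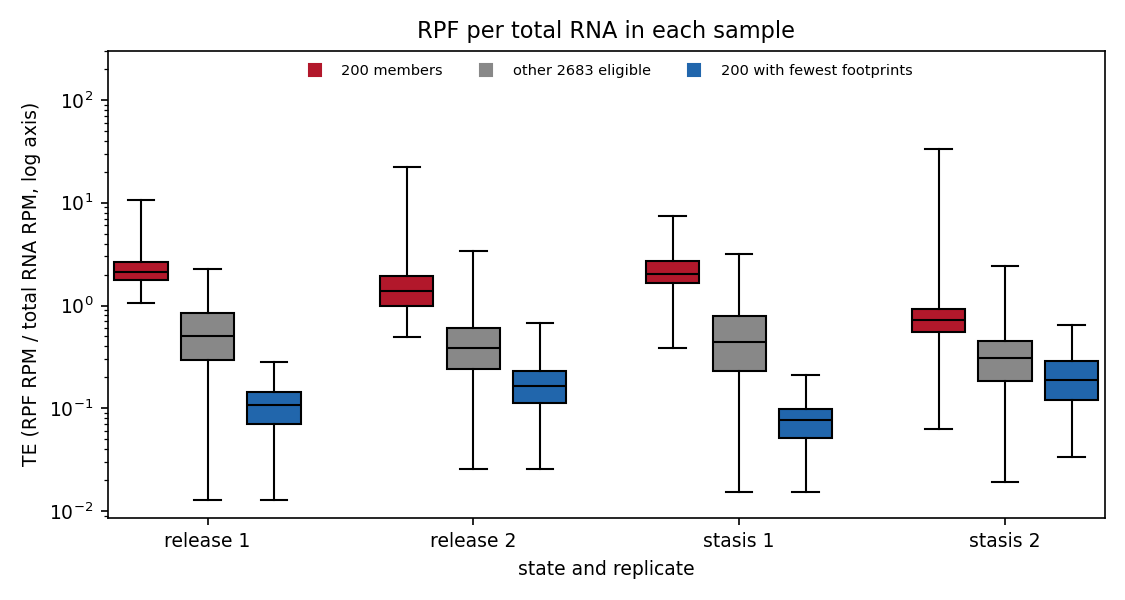
TE (RPF RPM over total RNA RPM, log axis) of the 200 members, the other 2683 eligible gene models and, within these, the 200 with the lowest ratio, in each sample (box: quartiles and median, whiskers: lowest and highest value above 0). The members' median was highest in release 1 (2.11) and lowest in stasis 2 (0.718), where the 3 sets lie closest together.

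Without the dominant gene models in the totals, the members' median TE was 2.59 and 2.33 on release and 2.62 and 1.64 in stasis. The others' medians were then 0.617 and 0.638 on release and 0.565 and 0.677 in stasis. The lower median TE of the members in stasis replicate 2 thus remained on this scale, while the others' median was highest there. Stasis replicate 2 also gave the fewest RPF reads to the sum that chose the members, and the part of this in the difference was not tested.

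The order within the set was less steady than the set. Each sample has its own 200 eligible gene models of highest TE, and these held 160 and 127 members on release and 145 and 77 in stasis. By gene model, 43 members were in this group in all 4 samples, and these are all of the eligible gene models for which that held. A rule that sums the same samples made that likely. A further 60 members were in it in 3 samples, 65 in 2, 27 in 1 and 5 in none. To take the overall level of each sample out, the TE of each member was divided by the others' median in the same sample (relative TE). The highest relative TE of a member was 2.61 times its lowest at the median (quartiles 2.01 and 3.33, range 1.23 to 50.6). For 150 of the 200 members the lowest relative TE was in stasis replicate 2.

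Since the rule used all 4 samples, a ranking on one replicate number was read in the other. This was added after the data were examined. The 200 gene models of highest ratio in replicate 1 alone, of which 155 are members, had a median TE of 1.31 in release replicate 2 and 0.673 in stasis replicate 2, against 0.375 and 0.297 in the other gene models eligible for that ranking. Of these 200, 199 lay above the others' median in release replicate 2 and 190 in stasis replicate 2. Ranked on replicate 2 alone, where 115 of the 200 are members, the median TE was 1.96 in release replicate 1 and 1.74 in stasis replicate 1, against 0.517 and 0.450 in the others. In samples that had not ranked them, these lists thus had a median TE of 2.27 to 3.87 times that of the others. The lists overlap the members only in part, so this is a description and no test of the members. The exact top 200 carried over less well: 118 and 71 of those ranked in replicate 1 were in the top 200 of release replicate 2 and stasis replicate 2.

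Across the 200 members, which are not independent and share their libraries, log2 TE of release replicate 1 correlated with that of stasis replicate 1 at r = 0.41 and with that of release replicate 2 at r = 0.44. Release replicate 2 and stasis replicate 2 had r = 0.64, and stasis replicates 1 and 2 had r = 0.12. These are descriptions, over members that the rule holds to a narrow band of ratios, and a few members with high values in replicate 2 lie at the far end of the points. Over all eligible gene models with reads in both samples, release and stasis had r = 0.89 in replicate 1 and 0.43 in replicate 2. There the replicates had r = 0.70 on release and 0.42 in stasis.

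The members of highest ratio had no annotation in the rows at hand, with 1 exception. GSOIDT00013012001, the first by ratio, had 1270 and 965 RPF RPM on release, against 801 and 630 in stasis, and 119 and 115 total RNA RPM on release, against 159 and 132 in stasis. Its TE was 10.6 and 8.39 on release and 5.03 and 4.77 in stasis. All 4 values were far above those of a typical member, and the release samples lay above the stasis samples without overlap, in RPF and in TE. The RPF difference did not pass the test described below (log2 fold change 0.47, SE 0.69, edgeR adjusted p = 1).

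GSOIDT00009234001, GSOIDT00009269001 and GSOIDT00015015001, which followed the second by ratio, behaved alike. Their TE lay between 5.29 and 5.89 in release replicate 1 and between 3.80 and 5.48 in release replicate 2, against 4.55 to 4.81 in stasis replicate 1 and 1.62 to 1.71 in stasis replicate 2. In each of them stasis replicate 2 was the lowest sample. GSOIDT00001854001, the eighth, had a TE of 3.87 and 4.02 on release and 5.75 and 1.92 in stasis.

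GSOIDT00005198001, the ninth, also took one of the largest shares of total RNA among the members. It had 5201 and 5310 RPF RPM on release and 7508 and 1834 in stasis, with 1583 and 1554 total RNA RPM on release and 1035 and 1434 in stasis. Its RPF were level between the release samples and spread most between the stasis samples, whose range enclosed them. GSOIDT00011460001, the tenth, had the same shape at a lower level, with 823 and 787 RPF RPM on release and 1353 and 252 in stasis.

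The members with the 2 largest shares of total RNA had ratios nearer the limit. GSOIDT00006079001 had 2818 and 2060 total RNA RPM on release and 4284 and 2974 in stasis, with 7434 and 4542 RPF RPM on release and 6676 and 2132 in stasis. GSOIDT00005157001 had 1885 and 1755 total RNA RPM on release and 2104 and 1814 in stasis, with 3039 and 1315 RPF RPM on release and 3511 and 1039 in stasis. In both, RPF differed more between the replicates of a state than between the states in replicate 1.

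The annotation of the study, of which 1998 rows were used, covered 19 of the 200 members (9.5%) and 262 of the 2883 eligible gene models (9.09%). These rows are a part of the whole table, which is ordered by the result of another experiment, so they are not a neutral sample. The counts and shares that follow are a description without a test. An informative name stood beside 7 of the 19 members and 170 of the 262 eligible gene models. By the names, 2 members were proteases or lipases (of 13 eligible), and 1 each was a house or silk protein (of 6), a matrix or adhesion protein (of 15), a metabolic enzyme (of 17) and a protein of cilia or sperm (of 7). No member was among the 7 eligible gene models named as transporters or channels, the 3 of translation or the 1 of muscle. A *trans*-spliced leader, a short sequence that *O. dioica* joins to the 5′ end of many mRNAs, was recorded for 6 of the 19 members (31.6%) and 76 of the 262 eligible gene models (29.0%), and oocyte transcripts were 4 of 19 (21.1%) and 55 of 262 (21.0%).

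GSOIDT00005231001 (seventh by ratio) is annotated only as "type alpha 6", a wording used for chains of collagen, the main fibrous protein of the extracellular matrix, but the protein itself is not named. It had 1730 and 862 RPF RPM on release and 1277 and 577 in stasis, and its total RNA was 277 and 285 RPM on release and 171 and 432 in stasis. Its TE was 6.24 and 3.03 on release and 7.48 and 1.34 in stasis. In both states TE was higher in replicate 1, and the states overlapped.

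GSOIDT00017210001 is annotated as tektin 3, a filament protein of the microtubules in cilia and sperm tails. Its RPF were 343 and 159 RPM on release and 381 and 103 in stasis, and its TE was 3.28 and 1.55 on release and 3.43 and 0.622 in stasis. The summed total RNA of the 36 cilia and sperm gene models was 1800 and 1697 RPM on release and 1773 and 2314 in stasis. The release values of tektin 3 lay within the range of the stasis values.

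Members named after digestive enzymes were GSOIDT00005280001 (carboxypeptidase a2), an enzyme that in mammals removes single amino acids from the end of peptides in the gut, and GSOIDT00003905001 (carboxyl ester lipase), which in mammals splits dietary lipid esters. Carboxypeptidase a2 had 606 and 256 RPF RPM on release and 416 and 157 in stasis, with a TE of 3.62 and 1.69 on release and 2.59 and 0.668 in stasis. Release lay above stasis within each replicate number, and the states overlapped. The lipase had 91.1 and 149 RPF RPM on release and 64.5 and 195 in stasis, so that it was higher in replicate 2 in both states.

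GSOIDT00013163001 (silk protein) had 416 and 224 RPF RPM on release and 460 and 122 in stasis, while GSOIDT00016031001 (oxidase peroxidase) had 328 and 240 RPF RPM on release and 338 and 141 in stasis. GSOIDT00006756001 (loc561562 protein, for which no role is given) had 152 and 84.2 RPF RPM on release and 210 and 11.5 in stasis. In all 3 the single lowest library was stasis replicate 2, and in all 3 the states overlapped. None of the 7 named members passed the test of RPF between the states (log2 fold changes -0.34 to 0.45).

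**Figure D3:**
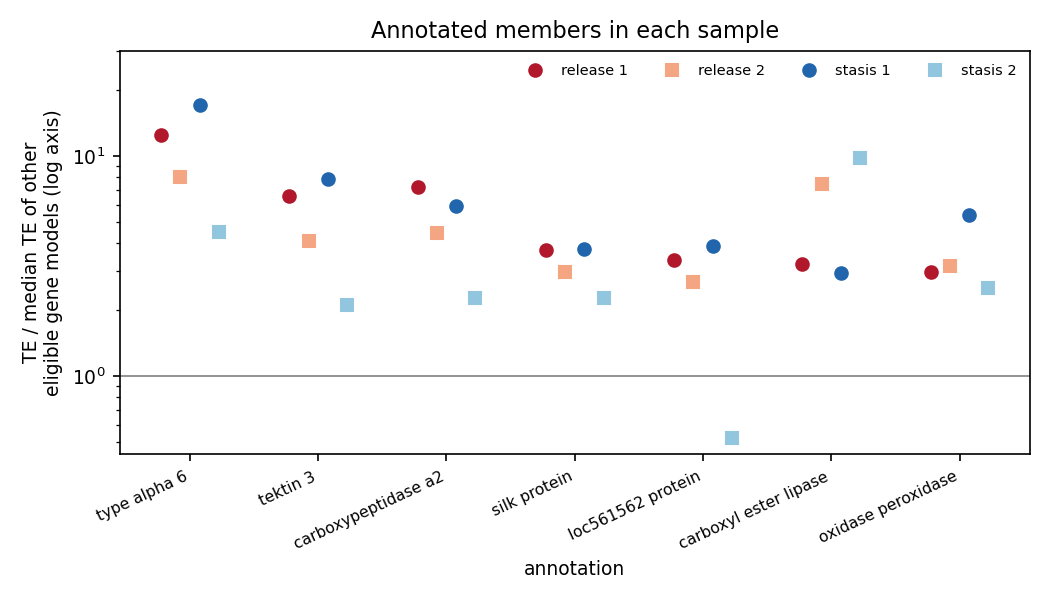
TE of the 7 members with an informative annotation, divided by the median TE of the other eligible gene models in the same sample (log axis), in order of ratio. Only the carboxyl ester lipase was highest in the replicate 2 samples of both states, and only the loc561562 protein fell under 1, in stasis 2 (0.523).

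The rule used the sum of RPF over both states and not their difference. A gene model could still enter through high reads in one state alone, and for such a member the test between the states draws on the values that chose it. For RPF, edgeR's quasi-likelihood test with TMM normalization set release against stasis. It was fitted on all 14595 gene models whose reads summed to 100 or more across the table. All 200 members passed that filter. The p-values rest on a spread between samples that the fit largely shares across gene models. An SE is therefore not the spread of a gene model's own replicates. It was 0.70 for GSOIDT00008044001, with 59.8 and 2013 RPF RPM in stasis. For GSOIDT00018071001, with 93.4 and 95.5 RPF RPM in stasis, it was 0.66. No member passed the adjusted threshold of 0.05, and the smallest edgeR adjusted p of a member was 0.172, with a background of 0% of all gene models higher and 0.00685% lower. Before adjustment, at p under 0.05, 2 members were higher on release and none (0) was lower (background 0.363% and 0.74%). DESeq2 also called no member, and no other gene model, and before adjustment had 2 members higher and 0 lower (background 0.158% and 0.322%).

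TE was tested as the interaction of state and assay over all 8 libraries. No member passed, the smallest edgeR adjusted p was 0.819, and the background was 0% in either direction. Before adjustment, at p under 0.05, 1 member was higher and none (0) was lower (background 2.45% and 3.49%). DESeq2 called no member either, while it called 0.0274% of all gene models higher and 0.0685% lower, and before adjustment it had 4 members higher and 0 lower (background 2.32% and 2.73%). Limma-voom called no gene model, and before adjustment had 2 members higher and 0 lower (background 1.69% and 3.32%). The fitted TE change had a median of 0.07 among the members, and 114 of 200 (57%) were above 0, against a median of -0.03 and 48.8% above 0 over all gene models tested. This median was -0.17 without release replicate 1, -0.34 without stasis replicate 2 and 0.88 without stasis replicate 1, so its direction depended on single samples.

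The fitted log2 RPF change of the members had a median of 0.20 (quartiles -0.01 and 0.36, range -1.26 to 2.80), and 148 of 200 (74%) were above 0. Over all gene models tested the median was 0.03, with 54.0% above 0. Without stasis replicate 1 the members' median was 0.93, beside 0.69 over all gene models, and without stasis replicate 2 it was -0.21, beside -0.02. Without release replicate 1 it was -0.06, beside -0.27. The direction of the members' median thus turned when either of 2 samples was left out. Scaling to library totals in place of TMM gave the members a median of 0.30 for RPF and 0.31 for TE, beside 0.15 and 0.22 over all gene models.

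Each replicate number read alone shows where the difference lay. In replicate 1, 121 of 200 members (60.5%) had more RPF RPM on release than in stasis, beside a background of 55% of all gene models and 62.4% of the other eligible ones. In replicate 2 it was 172 of 200 (86%), beside 48.9% of all gene models, many of which had no RPF reads there, and 64.6% of the other eligible ones. The median log2 ratio of the members after TMM was -0.00 in replicate 1 and 0.63 in replicate 2, while over all gene models with reads in both states it was 0.03 and -0.03. With totals that leave out the dominant gene models the members' medians were 0.01 and 0.45. Members higher on release in replicates 1 and 2 numbered 100 and 163 after TMM, and 101 and 149 with these totals. The excess in replicate 1 was thus seen by library totals only. Replicate 2 had the shallower RPF libraries and the larger share of reads on dominant gene models, most of all in stasis, and the part of this in the difference was not tested.

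The counts that follow use RPM by library totals, which the dominant gene models lowered most in stasis replicate 2. In both replicates release was higher for 105 members (52.5%, against 41.4% of the other eligible gene models and 28% of all tested) and lower for 12 (6%, against 14.5% and 13.6%). Another 67 were higher on release in replicate 2 alone and 16 in replicate 1 alone. The remaining gene models of the background had equal values in a replicate, and no member had. The stricter count, in which both release values lay above both stasis values, held for 13 members (6.5%, background 13.9%). The reverse held for 1 member (0.5%, background 7.5%), GSOIDT00018071001, named here for that count. Neither count could hold for the 166 members whose replicate 2 values both lay below both replicate 1 values. The same applies to the 5 members whose replicate 2 values both lay above. These low shares are therefore not read as a result about the states.

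**Figure D4:**
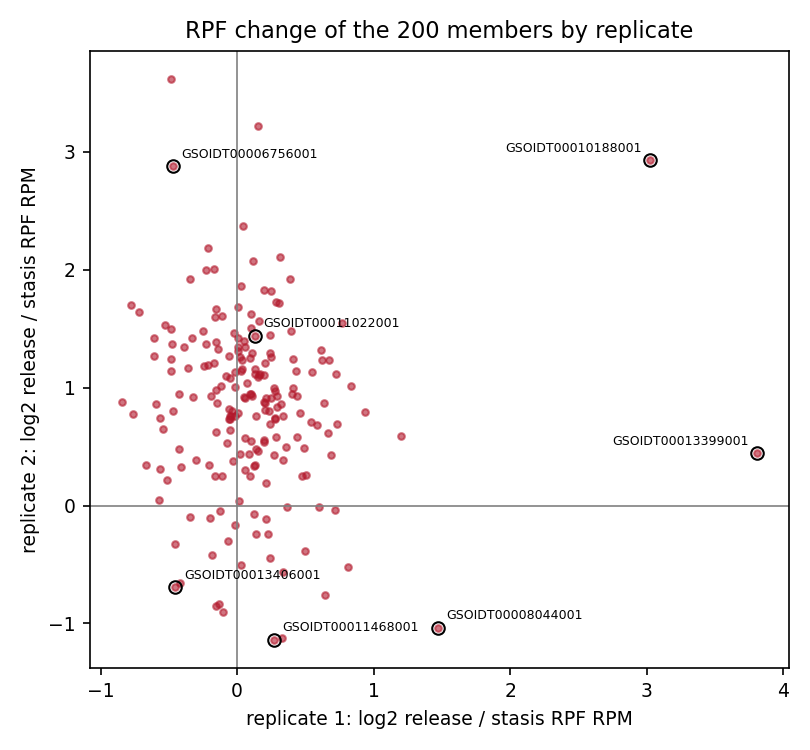
Log2 ratio of release to stasis RPF RPM of each of the 200 members, in replicate 1 (horizontal) and replicate 2 (vertical), with members named in the text circled. Most points lie near 0 in replicate 1 and above 0 in replicate 2 (172 of 200), and GSOIDT00010188001 is the only member above 2 in both.

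GSOIDT00010188001, without annotation, had the largest RPF difference among the members. It had 692 and 81 RPF reads on release, against 102 and 9 in stasis, which are 558 and 262 RPM on release, against 68.5 and 34.4 in stasis. Its total RNA was 229 and 109 RPM on release and 123 and 131 in stasis. The RPF values of the states lay far apart and did not overlap, while total RNA was high in release replicate 1 alone. RPF RPM was 8.14 times higher on release in replicate 1 and 7.63 times in replicate 2, and the fitted log2 change was 2.80 (SE 0.67, edgeR adjusted p = 0.172). TE was 2.44 and 2.41 on release and 0.559 and 0.263 in stasis (log2 change 2.22, edgeR adjusted p = 0.819). In stasis its TE was near the median of the other eligible gene models, so that it is a member through its release reads, and its values are a description rather than an independent test. With that limit, the adjusted p crossed the threshold without stasis replicate 1 (log2 change 3.12, edgeR adjusted p = 0.0388).

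GSOIDT00013399001, also without annotation, was the other member with an unadjusted p under 0.05. It had 1421 and 292 RPF RPM on release, against 101 and 214 in stasis, with total RNA of 353 and 136 RPM on release and 264 and 204 in stasis. Release replicate 1 was far above the rest, and the difference in replicate 2 was small (1.36 times, against 14.0 times in replicate 1). The fitted log2 RPF change was 2.11 (SE 0.68, edgeR adjusted p = 1), and without stasis replicate 2 it was 3.04 (edgeR adjusted p = 0.0185). Most of its RPF reads came from release replicate 1, so the same limit holds. Release replicate 1 is also the sample with the high muscle total RNA, and the part of this in the difference was not tested.

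A small number of members differed from most others by replicate number rather than by state. Both replicate 2 values of RPF RPM lay below both replicate 1 values for 166 of the 200 members and for 1256 of the other 2683 eligible gene models. They lay above them for 5 members and for 309 of the others. The 5 were GSOIDT00008044001, GSOIDT00011468001, GSOIDT00013406001, GSOIDT00011022001 and the carboxyl ester lipase, named for this pattern after their values were seen. The rule summed RPF reads, most of which came from replicate 1, so it favoured gene models that were high there. The dominant gene models also lowered RPM more in replicate 2. The counts by replicate number are therefore a description of the list.

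GSOIDT00008044001 had 982 RPF RPM in release replicate 2 and 2013 in stasis replicate 2, against 166 and 59.8 in the replicate 1 samples of release and stasis. Its total RNA was 79.6 and 79.7 RPM on release and 61.9 and 61.0 in stasis. RPF thus differed many times over between samples in which total RNA was level, and TE reached 12.3 in release replicate 2 and 33.0 in stasis replicate 2, the highest TE of any member. The fitted log2 RPF change was -1.15 (SE 0.70, edgeR adjusted p = 1), and without stasis replicate 2 it was 3.42. That fit sets a lone replicate 1 sample of stasis against both release samples, so it mixes replicate number with state. More RPF reads of this member came from replicate 2 than from replicate 1, so reads with this pattern also helped to make it a member.

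GSOIDT00013406001, the second by ratio, had 249 and 1539 RPF RPM on release and 341 and 2483 in stasis, with total RNA between 69.4 and 99.3 RPM. GSOIDT00011468001 had 292 and 1409 RPF RPM on release and 242 and 3102 in stasis, with total RNA between 198 and 276 RPM. GSOIDT00011022001 had 124 and 923 RPF RPM on release and 114 and 340 in stasis, with total RNA between 79.2 and 88.3 RPM. In each the replicate 2 samples were the high ones in both states. In GSOIDT00008044001 and these 3, more RPF reads came from the replicate 2 libraries than from the deeper replicate 1 libraries, summed over the states. In stasis alone GSOIDT00011022001 was the exception, with 89 reads in replicate 2 and 169 in replicate 1. Without sequences it could not be checked whether the RPF reads of these members came from translated mRNA or were shared with near-identical copies, so their TE may not measure ribosome loading. Their relative TE in stasis replicate 2 was 111 for GSOIDT00008044001, 90.1 for GSOIDT00013406001, 48.6 for GSOIDT00011468001 and 14.0 for GSOIDT00011022001, where the median member had 2.42.

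**Figure D5:**
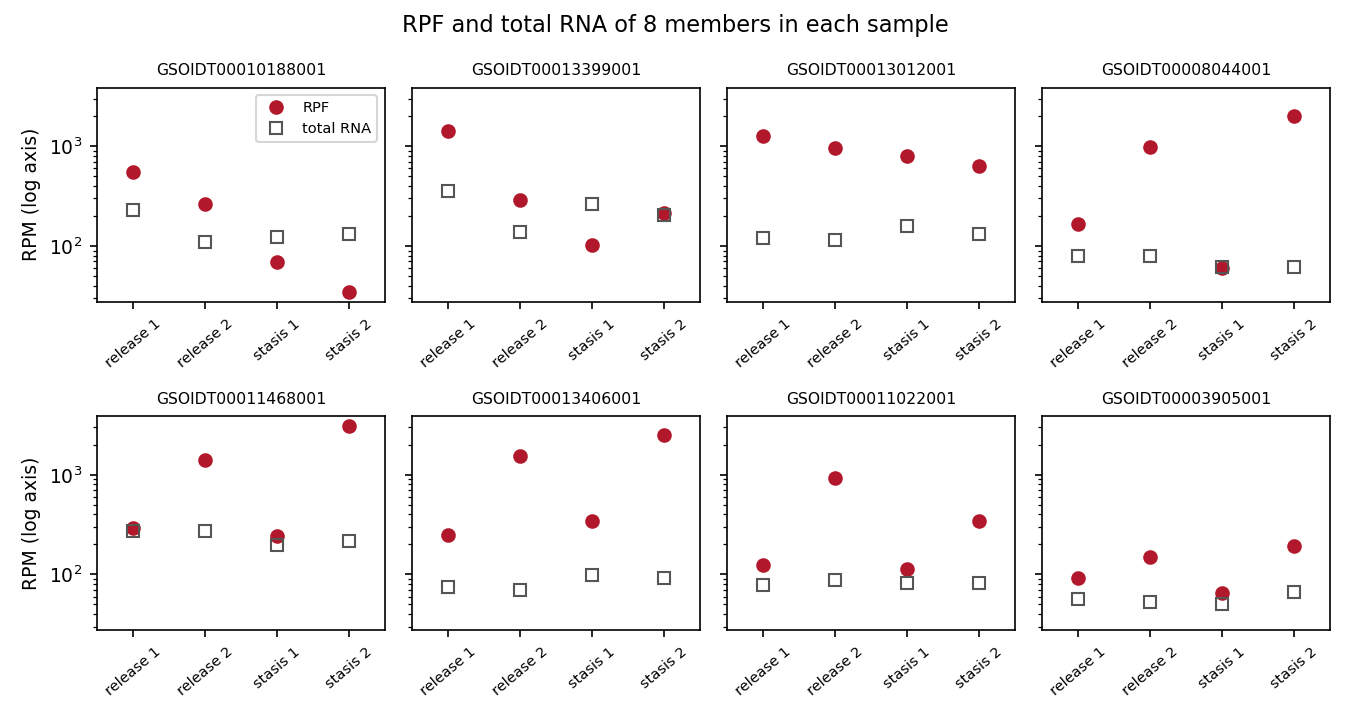
RPF RPM (filled circles) and total RNA RPM (open squares) of 8 members in each sample, on log axes. The first 3 members have higher RPF in both release samples than in both stasis samples, and the last 5 have their highest RPF in the replicate 2 samples, beside total RNA that changes little.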

How the data were processed

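RPF and total RNA libraries of whole animals, 2 samples of each state, were analysed. The authors clipped adapters, removed rRNA and tRNA reads with Bowtie2 2.1.0, mapped the rest with TopHat2 2.0.13 on Genoscope gene models and counted them per gene with featureCounts of Rsubread, per the labels and the methods. The deposited values are whole-number counts without normalization. Neither the build, nor strand use, nor the handling of multiply mapped reads is stated in the labels or methods, which leaves near-identical and overlapping genes uncertain. Of the columns in the table, 0 lacked a sample. Of the identifiers, 0 matched the RefSeq table (no coordinates or sequences are given), and no length was at hand.

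RPM used the library total. The tests used edgeR 4.0.16 in R 4.3.3 (glmQLFit and glmQLFTest after TMM, Benjamini-Hochberg adjustment). TE was a state by assay interaction, with TMM factors set per assay. An SE was obtained by dividing the change by the square root of its F. The babel package of the methods was not used. Alternatives were library totals, totals without dominant gene models, DESeq2 1.42.0, limma 3.58.1 (voom), other filters, a replicate block, each sample left out, and other limits of the rule. Scripts were tested on simulated data. Tables and figures used Python 3.11.15, pandas 2.3.3 and matplotlib 3.10.9.

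The members and gene lists were chosen with earlier results of these data known. Genes were named by a rule: the 10 highest ratios, the informatively annotated members, the 3 largest total RNA shares, members past a test or, without overlap, at an unadjusted p under 0.05, members of the keyword lists, and those beside the limit. Names outside it are said to be so in the text. With 2 samples against 2, the smallest two-sided exact permutation p is 0.333, so none was run for single genes.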

Additional observations from a re-analysis of the deposited data

How the results depend on the processing

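The number of members past the adjusted RPF threshold was 0 in the reported fit. It was also 0 with library totals, without the dominant gene models in the totals, with DESeq2 and under both other filters. The number changed when either stasis sample was left out. The members concerned were GSOIDT00010188001 (log2 change 3.12 without stasis replicate 1), GSOIDT00013399001 and GSOIDT00008044001 (3.04 and 3.42 without stasis replicate 2). High reads on release or in replicate 2 had helped to make these gene models members, so the change in number is not read as a result about the members. The median RPF change of the members ranged from -0.21 to 0.93 over the fits without 1 sample, with 0.93 reached without stasis replicate 1, and the median TE change ranged from -0.34 to 0.88 in the same way. No member passed the adjusted TE threshold in any of the 10 alternatives. Without stasis replicate 1, at an unadjusted p under 0.05, 62 members were higher and 3 lower in TE (background 6.65% and 6.88%), and without stasis replicate 2 the numbers were 4 and 20 (background 4.78% and 7.24%). The RPF change of GSOIDT00008044001 (reported as -1.15) ranged from -3.12 without release replicate 2 to 3.42 without stasis replicate 2, and that of GSOIDT00011468001 (reported as -1.26) from -2.98 to 1.97 with the same samples left out. With 1 sample left out, the lone sample of a state is assumed to vary like the other state. The cause of these shifts was not tested.

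Replicate numbers are shared by the states, but nothing in the labels says that a number marks a shared batch. Deviations of same-numbered samples from their state means correlated across genes at r = 0.19 for RPF and 0.19 for total RNA, over only 2 pairs. With the replicate block, 1 member passed for RPF, GSOIDT00010188001 (log2 change 2.83, edgeR adjusted p = 0.000185, the only call among all gene models, with the limit that its release reads made it a member), 0 passed for TE, and the RPF change of GSOIDT00008044001 was 0.0118.

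Membership depended on the limits of the rule. Of the 200 members, 114 were among the 200 at a minimum of 100 RPM and 117 at a minimum of 20 RPM. With equal weight to each library 181 remained, and with narrower limits on the total RNA ratio 137 did. Leaving out each sample kept between 145 and 178. RPF depth is a limit, with a median of 28.5 reads per member in stasis replicate 2.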
